A study of Mus musculus with 8 samples.

Results

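*Pax6*, *Rax*, *Six3*, *Six6*, *Lhx2*, *Sox2* and *Meis1* encode transcription factors that set up the eye field and act again in retinal progenitor cells (RPCs). They were taken by name as 7 of the 54532 genes of a count table from mouse retina, and all 7 were among the 17998 genes that passed a filter on low counts and were tested. RNA of whole retinas was sequenced in 4 *Mettl3*-CKO and 4 control samples. *Mettl3*-CKO mice were Six3-Cre+ and homozygous for a floxed allele of *Mettl3*, which encodes the enzyme that writes N6-methyladenosine (m6A) on mRNA, and the labels give the other group only as Control. The labels give postnatal day 7 for all samples, and the study's methods give an age 1 day younger. The Cre is driven by regulatory sequence of *Six3*, so it acts in RPCs, and the loss of METTL3 was shown by the study in the central retina, whereas the RNA came from the whole retina. Which alleles the controls carried, the Cre included, and how many pups went into a sample, are not given in the sources used here, so p-values measure only the spread between these samples.

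In the embryo, the eye field is the patch of anterior neural plate that forms both eyes, and it is marked by the joint expression of RAX, PAX6, SIX3, SIX6 and LHX2. The same factors, with SOX2 and MEIS1, later keep RPCs dividing and able to make several cell types. In the more mature retina their RNA is not restricted to progenitors: *Pax6* is also made in amacrine, ganglion and horizontal cells, *Sox2* and *Lhx2* in Müller glia and some amacrine cells, *Rax* in Müller glia and photoreceptors, and *Six3*, *Six6* and *Meis1* in several kinds of inner retinal neuron. In bulk RNA, fewer cells of a type and less RNA per cell cannot be told apart. The name homeobox factors covers only some of the set. The table files 5 of them as Homeobox, *Pax6* as PAX (a paired-box protein that also carries a homeodomain) and *Sox2* as HMG, the box that SOX proteins use in place of a homeodomain.

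The 250 bases before the RefSeq start sites of 6 of the 7 factors were read from RefSeq promoter windows on GRCm38.p6, in 8 windows. MEIS1 is itself in the set, and the core letters that MEIS proteins bind, TGACAG or CTGTCA on the other strand, were found in the windows of *Six3*, *Six6*, *Sox2* and in the second of 2 *Pax6* windows, and in 15.9% of 32851 windows of the same length across the genome. The letters TAATTA, a common homeodomain core that reads the same on both strands, were in 0 of the 8 windows and in 4.84% of all windows. A match is a run of letters and not a measured site. The windows that hold the MEIS core are shown with it in capitals, 5′ to 3′ on the strand of the gene. The *Lhx2* window is shown because *Lhx2* passed the test between the groups, and the *Six3os1* window because that noncoding neighbour of *Six3* passed it too. The *Six3os1* start lies 2438 bases from the *Six3* start, on the other strand.
Six3 (chr17:85620584-85620833, plus strand): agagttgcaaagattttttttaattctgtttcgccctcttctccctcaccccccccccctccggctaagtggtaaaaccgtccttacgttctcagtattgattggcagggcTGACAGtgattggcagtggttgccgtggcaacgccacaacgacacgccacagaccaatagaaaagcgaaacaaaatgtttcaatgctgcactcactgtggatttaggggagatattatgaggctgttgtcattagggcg
Six3os1 (chr17:85618397-85618646, minus strand): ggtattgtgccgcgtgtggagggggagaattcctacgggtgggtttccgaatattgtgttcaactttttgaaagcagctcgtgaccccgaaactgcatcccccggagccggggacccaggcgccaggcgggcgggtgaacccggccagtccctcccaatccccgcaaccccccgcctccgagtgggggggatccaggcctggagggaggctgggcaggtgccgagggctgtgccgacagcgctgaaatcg
Six6 (chr12:72939632-72939881, plus strand): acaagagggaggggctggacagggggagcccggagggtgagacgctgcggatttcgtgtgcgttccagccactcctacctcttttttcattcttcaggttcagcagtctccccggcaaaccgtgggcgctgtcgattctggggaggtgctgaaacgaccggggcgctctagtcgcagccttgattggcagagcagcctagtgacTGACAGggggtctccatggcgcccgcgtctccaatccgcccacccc
Sox2 (chr3:34649745-34649994, plus strand): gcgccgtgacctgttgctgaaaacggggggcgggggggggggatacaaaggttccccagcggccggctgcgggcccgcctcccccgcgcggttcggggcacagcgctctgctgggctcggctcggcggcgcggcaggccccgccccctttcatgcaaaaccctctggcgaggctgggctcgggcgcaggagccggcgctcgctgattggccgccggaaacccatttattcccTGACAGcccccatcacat
Pax6, second window (chr2:105682213-105682462, plus strand): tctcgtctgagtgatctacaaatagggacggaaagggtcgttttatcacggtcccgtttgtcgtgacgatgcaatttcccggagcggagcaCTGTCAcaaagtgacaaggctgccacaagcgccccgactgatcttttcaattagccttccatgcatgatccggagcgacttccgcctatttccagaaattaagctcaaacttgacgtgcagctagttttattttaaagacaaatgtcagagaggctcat
Lhx2, first of 2 windows (chr2:38339031-38339280, plus strand): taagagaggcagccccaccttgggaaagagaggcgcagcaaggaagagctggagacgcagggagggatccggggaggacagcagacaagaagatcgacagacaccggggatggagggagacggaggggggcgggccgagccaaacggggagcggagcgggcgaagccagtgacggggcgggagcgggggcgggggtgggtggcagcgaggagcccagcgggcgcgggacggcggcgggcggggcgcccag

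Total counts ranged from 16227095 to 20281517 per sample. Levels are given as CPM, the counts relative to library size, after scaling by edgeR's TMM method, and comparisons use its quasi-likelihood test with Benjamini-Hochberg adjustment over all genes tested and a threshold of 0.05. A gene that passed it is said to be called. Where a gene has 4 values for a group, they are in the order of the replicate numbers. Before scaling, each of the 7 factors had at least 1269 counts in every sample, so counting error was small beside the spread between samples. *Mettl3* itself was 21.1, 29.6, 21.3 and 24.3 CPM in *Mettl3*-CKO retinas and 33.8, 32.5, 29.4 and 29.3 CPM in the controls, a log2 fold change of -0.38 ± 0.12 (SE, adjusted p = 0.0602, edgeR). The *Mettl3*-CKO values reached into the control range only in replicate 2. In the GENCODE vM21 annotation, *Mettl3* shares 933 exon bases (18.4% of its own) with *Tox4* on the other strand. The use of strand in counting is not given, so reads there could belong to either. Control replicate 4 held 6301 CPM of lens genes in sum against at most 113 in the other 7 samples, and control replicate 1 held the highest sum of rod genes.

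*Lhx2* was the only 1 of the 7 factors called, and it was higher in *Mettl3*-CKO retinas. *Sox2* had the next largest difference, also upwards, and did not pass the test, and *Rax* was the only factor whose estimate lay below 0. The share of all tested genes called higher was 6.49% and called lower 4.05%, or 10.5% in either direction, against 1 of 7 factors called higher and 0 called lower. With 7 genes, a single call does not set them apart from the rest of the table. The 4 values of the groups did not overlap for 1 of the 7 factors, *Lhx2*, and for 17.4% of all tested genes. The median log2 fold change was 0.17 over the 7 factors, with 6 above 0, and -0.01 over all tested genes, of which 48.2% were above 0. The estimates of *Pax6*, *Six3*, *Six6*, *Meis1* and *Rax* lay between -0.10 and 0.22 on the log2 scale, each with a 95% interval that included 0.

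**Figure D1:**
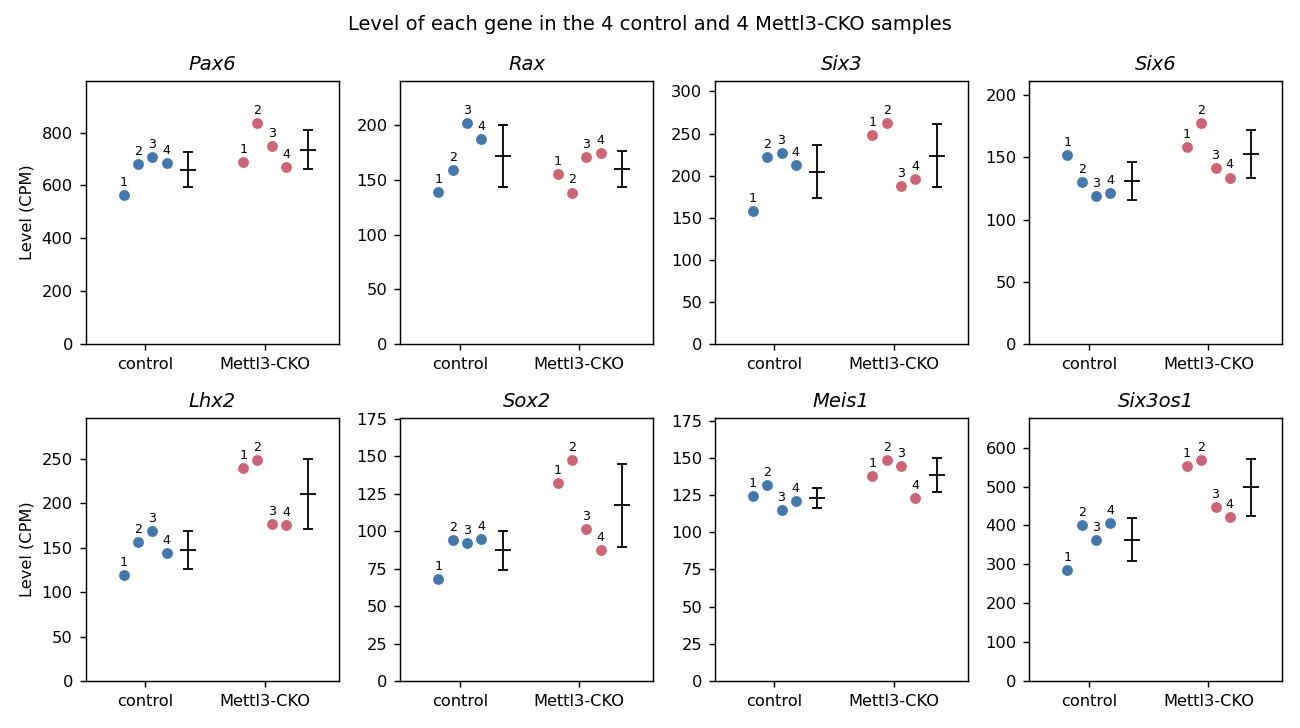
Level of each of the 7 factors and of *Six3os1* in CPM (y axis, from 0) in the 4 control (blue) and 4 *Mettl3*-CKO (red) samples, with the replicate number above each point and the mean ± SD beside it. *Lhx2* and *Six3os1* are the panels in which the groups do not overlap, and *Mettl3*-CKO replicates 1 and 2 lie above replicates 3 and 4 for *Six3*, *Six6*, *Lhx2*, *Sox2* and *Six3os1*.

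*Lhx2* encodes a LIM-homeodomain protein that is needed for the optic vesicle to become an optic cup and later acts in RPCs and Müller glia. It lies on GRCm38 chromosome 2 from 38339281 to 38369733, on the plus strand, with 8 exon blocks. *Lhx2* reached 240.2, 249, 177 and 176 CPM in *Mettl3*-CKO retinas and 119, 157, 169 and 144 CPM in the controls. All 4 *Mettl3*-CKO values lay above all 4 control values, narrowly in replicates 3 and 4. The means were 210.5 ± 39.6 CPM and 147 ± 21.4 CPM (SD, n = 4 each), a log2 fold change of 0.52 ± 0.14 (SE; 95% interval 0.22 to 0.81) with an adjusted p of 0.0312 from edgeR. The call was lost in 4 of the 8 fits that left out 1 sample: the adjusted p was 0.125 without *Mettl3*-CKO replicate 1, 0.0900 without *Mettl3*-CKO replicate 2, 0.0635 without control replicate 2 and 0.0726 without control replicate 4. The log2 fold change stayed between 0.43 and 0.60 in all 8 of these fits.

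*Sox2* encodes an HMG-box factor that keeps RPCs competent to divide and to make neurons. It is a single-exon gene on chromosome 3, from 34650405 to 34652461 on the plus strand, inside the much longer *Sox2ot*. It was measured at 132, 148, 102 and 87.7 CPM in *Mettl3*-CKO retinas and at 67.9, 94.3, 92.0 and 95.1 CPM in the controls. *Mettl3*-CKO replicates 1 to 3 lay above every control and replicate 4 lay within the control range. This was a log2 fold change of 0.43 ± 0.16 (SE; 95% interval 0.083 to 0.77) with an adjusted p of 0.112 from edgeR. Without *Mettl3*-CKO replicate 4 it was 0.54 with an adjusted p of 0.0466, and without the filter on low counts the adjusted p was 0.0167 (edgeR), so *Sox2* passed the threshold in these 2 fits.

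*Rax*, the retina and anterior neural fold homeobox, is required for the eye field itself and stays on in RPCs and photoreceptors. *Rax* stood at 155, 139, 171 and 175 CPM in *Mettl3*-CKO retinas and 139, 159, 202 and 187 CPM in the controls. No *Mettl3*-CKO value lay above the control range. *Rax* had a log2 fold change of -0.10 ± 0.12 (SE; 95% interval -0.36 to 0.15; adjusted p = 0.654, edgeR), and without control replicate 3 it was -0.01. The table gives *Rax* a shorter extent (length 1669 bases) than the GENCODE vM21 annotation (5846 exon bases on chromosome 18, minus strand, 65928277 to 65939787), while the coordinates and lengths of the other 6 factors are the same in both.

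*Six3* and *Six6* are closely related SIX-class homeobox genes. SIX3 guards anterior neural identity and represses WNT signals in the eye field, and SIX6 promotes RPC division. *Six3* was at 248, 262, 188 and 196 CPM in *Mettl3*-CKO retinas and at 158, 222, 227 and 213 CPM in the controls. *Mettl3*-CKO replicates 1 and 2 were above all controls, and replicates 3 and 4 were below 3 of the 4. The log2 fold change was 0.13 ± 0.13 (SE; 95% interval -0.16 to 0.42; adjusted p = 0.617, edgeR), and 0.02 without control replicate 1. *Six6* was at 158, 178, 142 and 134 CPM in *Mettl3*-CKO retinas and at 152, 130.4, 119 and 121 CPM in the controls. Its highest control was replicate 1, the sample in which the other eye-field factors were lowest. For *Six6* the log2 fold change was 0.22 ± 0.11 (SE; 95% interval -0.01 to 0.46; adjusted p = 0.225, edgeR). Without control replicate 1 it was 0.31 with an adjusted p of 0.0332, which passed the threshold.

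*Pax6*, the paired-box factor whose loss prevents eye formation, was measured at 689, 836, 747 and 669 CPM in *Mettl3*-CKO retinas and at 564, 683, 709 and 684 CPM in the controls. The groups overlapped, with 2 *Mettl3*-CKO samples above all controls. The log2 fold change was 0.16 ± 0.10 (SE; 95% interval -0.06 to 0.38; adjusted p = 0.382, edgeR). *Meis1*, a TALE-class homeobox gene whose product binds DNA with PBX partners and lies upstream of *Pax6* in the lens, varied least between samples. It was found at 138, 149, 145 and 123 CPM in *Mettl3*-CKO retinas and 124, 132, 115 and 121 CPM in the controls, a log2 fold change of 0.17 ± 0.09 (SE; 95% interval -0.01 to 0.36; adjusted p = 0.240, edgeR). The SD was 8.18% of the mean in *Mettl3*-CKO and 5.56% in control, against 10.2% and 9.83% for *Pax6* and 23.5% and 14.9% for *Sox2*.

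To compare levels between genes, counts were divided by gene length and library total (FPKM). *Rax* was highest per length at 102 ± 18.0 FPKM in control and 95.9 ± 10.1 FPKM in *Mettl3*-CKO (SD, n = 4 each), on the short length that the table gives it. *Pax6* followed with 56.2 ± 6.38 and 62.9 ± 6.05 FPKM, and *Sox2* with 42.3 ± 6.95 and 57.1 ± 13.4 FPKM. *Six3*, *Lhx2* and *Six6* had similar levels in control, at 37.5 ± 6.37, 33.3 ± 5.25 and 32.4 ± 3.22 FPKM, and 41.1 ± 6.87, 48.0 ± 9.05 and 38.1 ± 4.78 FPKM in *Mettl3*-CKO. *Meis1* was lowest, at 11.6 ± 0.70 and 13.2 ± 0.996 FPKM. The ranges of neighbours in this order were apart between *Rax* and *Pax6* and between *Six6* and *Meis1* in both groups, and between *Pax6* and *Sox2* in control, and overlapped elsewhere. *Lhx2* came after *Six3* in all 4 control samples and before it in all 4 *Mettl3*-CKO samples.

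Ratios within a sample do not depend on the scaling between samples, and 21 pairs of factors were compared by two-sided exact permutation tests. The log2 ratio of *Six3* to *Lhx2* was 0.48 ± 0.07 in control and 0.09 ± 0.05 in *Mettl3*-CKO (SD, n = 4 each), a difference of -0.38 with no overlap. The ratio of *Rax* to *Lhx2* differed by -0.60 and that of *Six3* to *Sox2* by -0.28, also with no overlap. These 3 pairs reached the smallest p that 4 against 4 samples allow (exact permutation p = 0.0286), and with Benjamini-Hochberg adjustment over the 21 pairs it was 0.200. The ratio of *Lhx2* to *Sox2* differed by 0.10 (exact permutation p = 0.314, adjusted p = 0.508).

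Several of these loci hold noncoding or antisense genes that overlap the factor. GENCODE places 18 such genes over the 7 factors, of which 12 were tested and 3 called, where 10.5% of all tested genes were called. Of the called genes, 2 lie at *Six3*. The long noncoding *Six3os1*, transcribed from the other strand (chromosome 17, 85600651 to 85618398), was at 553, 569, 448 and 421 CPM in *Mettl3*-CKO retinas and at 285, 402, 362 and 406 CPM in the controls. All *Mettl3*-CKO values were above all controls, with a log2 fold change of 0.45 ± 0.13 (SE; adjusted p = 0.0429, edgeR). *Six3os1* shares 106 exon bases with *Six3*, or 1.95% of the exon bases of *Six3*. *Gm27427* is an annotated RNA of 193 bases inside the range of *Six3* (85619225 to 85619417), before the RefSeq start of *Six3*. It was at 7.69, 5.57, 4.52 and 4.79 CPM in *Mettl3*-CKO retinas and 1.93, 3.61, 0.892 and 3.51 CPM in the controls. The control values rest on 17 to 59 counts per sample. The log2 fold change was 1.20 ± 0.34 (SE; adjusted p = 0.0425, edgeR). Its range overlaps that of *Gm28528* on the other strand (85619326 to 85621001), so reads there could belong to either. *Gm28528*, antisense across the RefSeq start of *Six3* with 168 shared exon bases, ranged from 21.1 to 34.1 CPM in *Mettl3*-CKO and from 4.56 to 25.1 CPM in control and was not called (log2 fold change 0.74 ± 0.37 (SE), adjusted p = 0.238, edgeR). The Six3-Cre transgene carries *Six3* sequence of an extent not given in the sources used here, and its RNA and that of the locus cannot be told apart in these counts.

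The third called gene was *Raxos1*, antisense to *Rax*, which was lower in *Mettl3*-CKO. It was at 16.9, 22.6, 22.3 and 17.8 CPM in *Mettl3*-CKO retinas and at 22.7, 32.1, 32.4 and 30.6 CPM in the controls, with the highest *Mettl3*-CKO value just below the lowest control. The log2 fold change was -0.57 ± 0.14 (SE; adjusted p = 0.0217, edgeR). *Raxos1* shares 1604 exon bases with *Rax* as GENCODE draws it. The shorter *Rax* that was counted (65934639 to 65939089) still overlaps the range of *Raxos1* (65937538 to 65940447). The exon bases shared there were not measured. Whether the counting used strand is not stated, so reads in any shared bases could belong to either. Of the 8 fits that each left out 1 sample, *Six3os1* stayed called in 2, *Gm27427* in 3 and *Raxos1* in 3. With all samples kept and another tool, scaling, filter or design, *Six3os1* was called in 6 of 8 fits and the other two in 8.

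Read against its host within each sample, *Six3os1* had 2.23, 2.17, 2.38 and 2.15 times the counts of *Six3* in the *Mettl3*-CKO samples and 1.81, 1.81, 1.60 and 1.90 times in the controls. The groups did not overlap, and the log2 ratio differed by 0.33. *Gm27427* to *Six3* differed by 1.23 and *Sox2ot* to *Sox2* by -0.45, each without overlap. Each of these 3 reached the exact permutation p of 0.0286, and adjusted over the 12 ratios it was 0.114. *Sox2ot* itself was 33.1, 45.1, 36.8 and 34.7 CPM in *Mettl3*-CKO and 29.8, 42.1, 43.7 and 38.9 CPM in the controls, with a log2 fold change of -0.04 ± 0.13 (SE; adjusted p = 0.882, edgeR). *4930447C04Rik*, the gene opposite *Six6* with 192 shared exon bases, had a log2 fold change of -0.32 ± 0.15 (SE) and *Pax6os1* of 0.37 ± 0.15 (SE), at adjusted p of 0.192 and 0.148 from edgeR. The other 5 tested overlapping genes, 2 at *Lhx2* and 3 at *Meis1* (where *Gm37818* shares 1029 exon bases), had log2 fold changes between -0.10 and 0.25 and none was called.

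**Figure D2:**
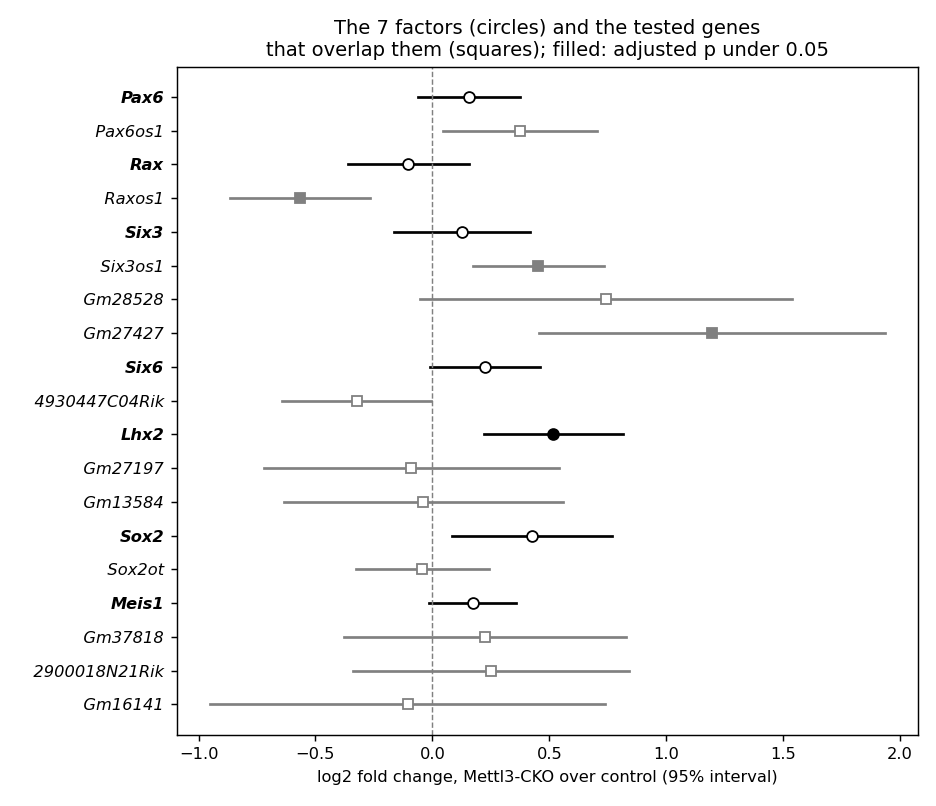
Log2 fold change of *Mettl3*-CKO over control (x axis, with the 95% interval as a line) for the 7 factors (black circles) and the 12 tested genes that overlap them (grey squares, under their factor), with filled symbols for an adjusted p under 0.05. *Lhx2* (0.52) is the only filled circle, and *Six3os1* (0.45), *Gm27427* (1.20) and *Raxos1* (-0.57) are the filled squares.

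Other transcription factors of the optic cup and of RPCs were read from a list of 38, of which 37 were tested. Called higher were 6 (16.2%, against 6.49% of all tested genes) and called lower 0 (against 4.05%), with a median log2 fold change of 0.25. *Atoh7*, the proneural factor for ganglion cell competence, was at 44.5, 29.3, 27.0 and 24.9 CPM in *Mettl3*-CKO retinas and at 9.04, 10.2, 12.8 and 10.2 CPM in the controls, a log2 fold change of 1.57 ± 0.18 (SE, adjusted p = 0.000434, edgeR). *Vax1* and *Vax2*, homeobox genes of the ventral optic cup and optic stalk, rose by 1.21 ± 0.23 and 0.50 ± 0.13 on the log2 scale (SE, adjusted p = 0.00595 and 0.0268, edgeR). *Nr2f1*, a nuclear receptor that patterns the optic vesicle, rose by 0.58 ± 0.10 (SE, adjusted p = 0.00519, edgeR). *Mab21l1*, another gene of the list needed for eye growth, rose by 0.47 ± 0.10 (SE, adjusted p = 0.0112, edgeR). All 6 had groups that did not overlap. In the fits that left out 1 sample each, *Atoh7*, *Vax1*, *Nr2f1* and *Mab21l1* stayed called in 8 of 8 and *Vax2* in 4.

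Among close relatives of the 7 factors, 13 of 16 were tested, 1 was called higher and 1 lower (15.4%, against 10.5% of all tested genes). *Six5*, a SIX-class gene, was at 15.5, 14.8, 9.72 and 11.6 CPM in *Mettl3*-CKO retinas and at 4.71, 7.47, 6.92 and 7.25 CPM in the controls, a log2 fold change of 0.97 ± 0.19 (SE, adjusted p = 0.00698, edgeR). *Six2*, best known from kidney progenitors, averaged 2.13 ± 0.52 CPM in *Mettl3*-CKO and 3.67 ± 0.80 CPM in control (SD, n = 4 each) and fell by 0.79 on the log2 scale (SE 0.23, adjusted p = 0.0495, edgeR), a call kept in 2 of the 8 fits without 1 sample. *Meis2*, the relative of *Meis1* with the highest level, was at 244 ± 26.0 CPM and 230 ± 20.9 CPM (SD, n = 4 each) and was not called (log2 fold change 0.09 ± 0.10 (SE)). The table files 232 genes as Homeobox. Of the 64 tested, 8 were called higher and 3 lower (17.2%, against 10.5% of all tested genes), with a median log2 fold change of 0.06.

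Proteins that work with the 7 factors were taken from a list of 36, of which 34 were tested. Called higher were 3 of them: *Pou3f1*, a POU factor of the kind that binds DNA beside SOX2, by 0.57 ± 0.17; *Gmnn*, geminin, which holds back DNA replication licensing and binds SIX3, by 0.52 ± 0.13; and *Rlim*, which marks the LIM cofactor LDB1 for degradation, by 0.49 ± 0.11 (log2 fold change ± SE). Called lower were 2, *Lmo1* and *Lmo2*, LIM-only proteins that compete with LIM-homeodomain proteins such as LHX2 for LDB1, which fell by 0.68 and 0.58 on the log2 scale. *Lmo1* lay between 20.6 and 34.2 CPM in *Mettl3*-CKO retinas and between 35.3 and 50.9 CPM in the controls, with no overlap. The share called was 14.7%, against 10.5% of all tested genes, and the median log2 fold change over the list was -0.03. In the fits without 1 sample, *Rlim* stayed called in 7 of 8, *Gmnn* and *Lmo1* in 5, *Lmo2* in 3 and *Pou3f1* in 2. In the 8 fits that kept all samples but used another tool, scaling, filter or design, *Pou3f1* was called in only 3, and the other 4 in at least 7.

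Of 13 genes described as controlled by these factors in retina, 12 were tested, with a median log2 fold change of 0.09. Called higher were 2 and lower 3 (41.7%, against 10.5% of all tested genes). *Atoh7*, described above, was among those called higher. *Rlbp1*, the retinaldehyde-binding protein of Müller glia, fell by 1.28 on the log2 scale (SE 0.21, adjusted p = 0.00305, edgeR), from 342, 193, 192 and 191 CPM in the controls to 71.5, 77.4, 109 and 122 CPM in the *Mettl3*-CKO samples. *Cdkn1b*, a cell-cycle inhibitor, fell by 0.38 (SE 0.09, adjusted p = 0.0163, edgeR), and *Neurod1*, a bHLH factor of photoreceptors and amacrine cells, by 0.35 (SE 0.08, adjusted p = 0.0148, edgeR), both on the log2 scale and with no overlap. *Ccnd1*, the cyclin of dividing RPCs, averaged 1261 ± 220 CPM in *Mettl3*-CKO and 993 ± 165 CPM in control (SD, n = 4 each) and was not called. *Hes1* and *Hes5*, Notch effectors in RPCs, had log2 fold changes of 0.50 ± 0.16 and -0.12 ± 0.14 (SE) and were not called.

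**Figure D3:**
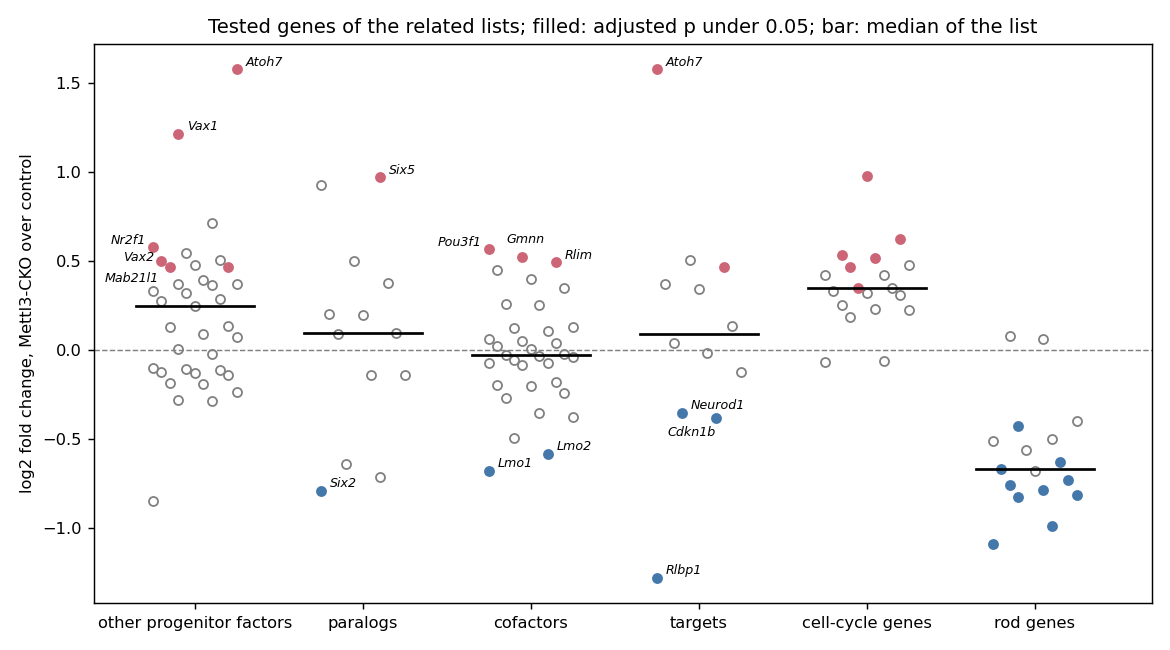
Log2 fold change of *Mettl3*-CKO over control (y axis) for the tested genes of 4 lists related to the 7 factors and of the cell-cycle and rod lists, each point a gene, filled and coloured where the adjusted p was under 0.05 (red higher, blue lower), with a bar at the median of the list and the genes given in the text named. The 6 filled points of the progenitor list all lie above 0, led by *Atoh7* (1.57), and the 10 filled points of the rod list all lie below 0.

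Markers of the cell types that carry these factors were summed in each sample. For the counts of called markers, the shares over all tested genes were 6.49% higher and 4.05% lower. For cell-cycle genes, which mark dividing RPCs, the sum was 3456, 3386, 3105 and 2622 CPM in *Mettl3*-CKO retinas and 1922, 2528, 2235 and 2247 CPM in the controls, with 6 of 19 genes called higher and 0 lower. The proliferation marker *Mki67* had the largest change of the list and rose by 0.98 ± 0.12 on the log2 scale (SE, adjusted p = 0.000701, edgeR). It went from 459 ± 46.5 CPM in control to 905 ± 150 CPM in *Mettl3*-CKO (SD, n = 4 each), so it weighs heavily in the difference between the sums. Most of the list changed less: 17 of the 19 estimates lay above 0, with a median of 0.35. *Ccna2*, at 0.18 ± 0.10 (SE, adjusted p = 0.268, edgeR), was not called. For rod genes the sum was 3118, 2722, 3760 and 4674 CPM in *Mettl3*-CKO and 6868, 5085, 4482 and 5246 CPM in the controls, with 10 of 17 called lower and 0 higher. *Mettl3*-CKO replicates 1 and 2, with the highest *Lhx2*, *Sox2* and *Six3*, had the highest cell-cycle sums and the lowest rod sums, and control replicate 1, with the lowest *Lhx2*, *Sox2*, *Six3* and *Pax6*, had the lowest cell-cycle sum and the highest rod sum. Not all factors followed this order. *Six6* was also highest in *Mettl3*-CKO replicates 1 and 2, at 158 and 178 CPM, but control replicate 1 came next at 152 CPM. *Rax* was low in both *Mettl3*-CKO replicate 2 and control replicate 1, at 139 CPM each. The part of cell composition in the levels of the 7 factors was not tested.

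Of the other cell types that make these factors, bipolar cells had marker sums that stood apart between the groups, and the sums of the others overlapped. Amacrine genes summed to between 1385 and 1816 CPM in *Mettl3*-CKO and between 1587 and 1932 CPM in control, with 5 of 20 called lower and 0 higher. Müller glial genes summed to between 2752 and 3040 CPM and between 2842 and 3700 CPM, with 1 of 13 tested genes called higher (*Glul*, by 0.43 on the log2 scale) and 2 lower (*Rlbp1* and *Crym*). Ganglion cell genes summed to between 1388 and 1473 CPM and between 1168 and 1535 CPM, with 2 of 14 called higher. Horizontal cell genes summed to between 645 and 847 CPM and between 592 and 847 CPM, with 1 of 7 tested genes called higher. Bipolar genes summed to 629 to 724 CPM in *Mettl3*-CKO and 487 to 584 CPM in control, with 2 of 13 tested called higher and 1 lower. Among cell types from outside the neural layers, 11 of 16 vascular genes were called lower and 1 higher. Their sums were 672 to 764 CPM in *Mettl3*-CKO and 704 to 812 CPM in control. Most of both was *Kdr*, at 558 ± 41.1 and 549 ± 59.9 CPM (SD, n = 4 each). *Kdr* was not called, so the sums say little about the other vascular genes. Erythrocyte genes summed to 4.34 to 7.30 CPM in *Mettl3*-CKO and 14.1 to 26.4 CPM in control. Genes of pigment epithelium and ciliary margin, where *Pax6* is also made, summed to 77.4 to 103 CPM and 102 to 135 CPM, with 2 of 11 called higher and 4 lower. Their part in the levels of the 7 factors was not tested.

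**Figure D4:**
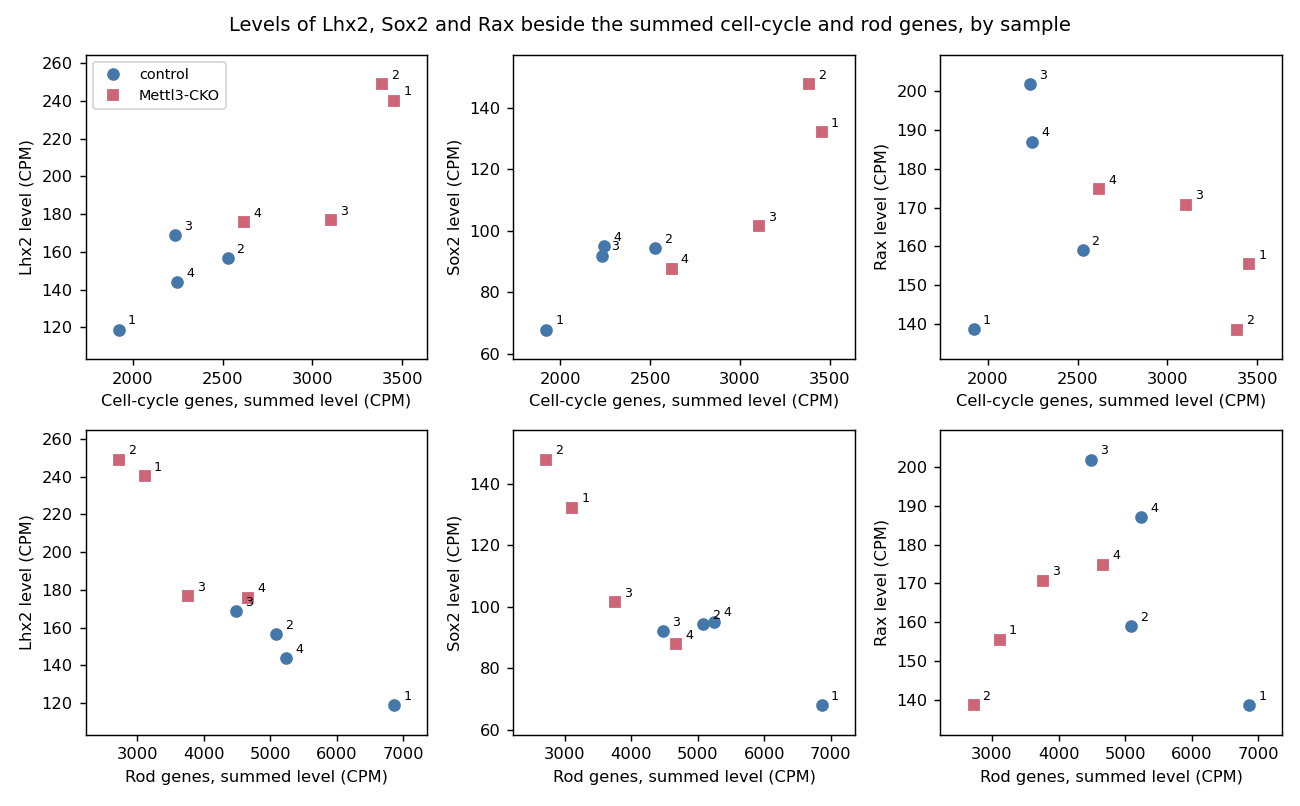
Level in CPM of *Lhx2*, *Sox2* and *Rax* (y axes, not from 0, TMM-scaled) against the summed level in CPM (on library totals) of the cell-cycle genes (upper row) and of the rod genes (lower row) in each sample, numbered by replicate (blue circles control, red squares *Mettl3*-CKO). *Mettl3*-CKO replicates 1 and 2 have the highest *Lhx2* (240.2 and 249 CPM) and the lowest rod sums (3118 and 2722 CPM), and control replicate 1 has the lowest *Lhx2* (119 CPM) and the highest rod sum (6868 CPM).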

How the data were processed

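RNA from whole retinas of 4 *Mettl3*-CKO and 4 control samples was sequenced as paired reads from NEBNext Ultra libraries. The values that the authors deposited are raw read counts per gene, whole numbers whose totals differ between samples; per the labels and methods, reads were mapped with HISAT2 to GRCm38 (mm10) and counted with featureCounts. The gene annotation release and the use of strand are not given in the sources used here. The table also gives gene lengths, which were used for FPKM on the library totals. Counts were tested with edgeR 4.0.16 in R 4.3.3 (filterByExpr, TMM, quasi-likelihood test, Benjamini-Hochberg adjustment, threshold 0.05). Standard errors are the absolute log2 fold change over the square root of F. Log2 CPM used a prior count of 2. DESeq2 1.42.0, limma 3.58.1 (voom), other scalings, filters and thresholds, a replicate block and leaving out each sample were alternatives. Ratios were compared by exact permutation tests (SciPy 1.17.1). The fit was tested on simulated data. Replicates with the same number did not deviate together, so the numbers were not used to pair samples. No pair of samples agreed within sampling noise. The 7 factors and the lists were chosen with earlier results of these data known.

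Named genes are the 7 factors, *Mettl3*, genes overlapping a factor in GENCODE vM21, up to 5 called genes per direction in each of 4 related lists, and for each factor the 2 tested genes whose pattern over samples was most like it. *Mab21l1*, *Meis2*, *Ccnd1*, *Hes1*, *Hes5*, *Mki67*, *Ccna2*, *Glul*, *Crym*, *Kdr* and *Tox4* were named after their values were seen. A gene that the rule covers is not reported here. Promoter windows come from RefSeq (GRCm38.p6).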

Additional observations from a re-analysis of the deposited data

Results flagged for a closer look

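In groups of 4, the sample farthest from the rest was set against Dixon's 95% critical value, which chance exceeds in about 1 group in 20. Of 72 groups examined, 8 held such a sample, against 3.6 that chance would give. Control replicate 1 was the lowest control for *Pax6* (log2 CPM 9.141, others at least 9.42), *Six3* (7.303, others at least 7.74) and *Sox2* (6.088, others at least 6.52), 3 of the 7 factors. It was also lowest for *Raxos1* (4.511), *Pou3f1* (2.966) and *Six5* (2.269), and highest for *Rlbp1* (8.416, others at most 7.59). Control replicate 4 was highest for *Gm27197* (1.338, others at most 0.685).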

How the results depend on the processing

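Every factor kept the sign of its estimate in all 18 alternatives. *Lhx2* (main log2 fold change 0.5174) ranged from 0.5076 to 0.5239 in the 10 alternatives that kept all samples, and lost its call at a threshold of 0.01 (0.5174) and with the replicate block (0.5098, adjusted p = 0.0527, edgeR). *Sox2* gained a call without the low-count filter (0.4294, adjusted p = 0.0167, edgeR). The number of factors called higher was 0 at a threshold of 0.01, 0 with the replicate block and 2 without the low-count filter. Genes called numbered 439 higher and 147 lower at a threshold of 0.01, and 1690 higher and 1195 lower at 0.1.

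Leaving out each sample in turn gave 0 to 2 factors called higher and 0 called lower, 509 to 1882 genes called higher and 185 to 1289 called lower; the lowest counts of both came without *Mettl3*-CKO replicate 1 and the highest without control replicate 1. The log2 fold changes ranged from 0.4281 to 0.5959 for *Lhx2*, 0.2967 to 0.5438 for *Sox2*, 0.146 to 0.3075 for *Six6*, 0.08911 to 0.2001 for *Pax6*, 0.02041 to 0.2044 for *Six3*, 0.1375 to 0.2263 for *Meis1* and -0.1915 to -0.01125 for *Rax*. The cause of the lost calls was not tested. The correlation of same-numbered samples' deviations was -0.111, 0.215, -0.114 and 0.249 for numbers 1 to 4, so the numbers do not mark pairs, and only samples numbered 2 and 4 correlated best with their own number; the block gave 1198 genes higher and 660 lower.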

Other observations

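For each factor, the 2 genes whose group-centred log2 CPM followed it most closely over the 8 samples were taken from 14316 genes with a mean log2 CPM of at least 1. They were *Aph1a* and *Ccdc85c* for *Lhx2* (Pearson r 0.992 and 0.991), *Yap1* and *Zwilch* for *Sox2* (0.988 and 0.988), *Nup50* and *Dok1* for *Six3* (0.998 and 0.994), *Stim2* and *C030037D09Rik* for *Six6* (0.971 and 0.980), *Isoc1* and *Gpatch2* for *Pax6* (0.996 and 0.985), *Mbd5* and *1110008L16Rik* for *Rax* (0.986 and 0.987) and *Zc3h8* and *Car12* for *Meis1* (0.979 and 0.958). These are the highest of many correlations over 8 samples that share library depth and composition, with 1% of all compared genes above 0.912 for *Lhx2* and above 0.802 for *Meis1*, and they carry no test.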
